A study of Mus musculus with 6 samples.

Results

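The 10 genes described here are direct or well-known transcriptional targets of p53, chosen by name: Cdkn1a, Btg2, Ccng1, Mdm2, Trp53inp1, Phlda3, Sesn1, Sesn2, Bax and Bbc3. All 10 were present in the table of 54532 genes, and all 10 had a mean of at least 1 FPKM and so were among the 13723 genes tested. The RNA came from islets of the mouse pancreas, and the labels give the cell type as beta cell, the cell that makes insulin. There were 3 control libraries, with the genotype label wt, and 3 libraries called Bcas2 cKO here. The genotype label of that group is Cko, which the series text describes as a knockdown of Bcas2. Library 5 of the group has no sample label of its own and was placed by its column name. BCAS2 belongs to the Prp19 complex, through which the spliceosome is activated. How the knockout was driven in the cells, which part of Bcas2 was deleted, any allele carried by the controls, and the age, sex and strain of the mice were not stated in the labels. The labels do not tie the libraries to separate animals, and the p-values then cover no more than the spread among 6 libraries, part or all of which may be technical.

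The p53 protein, encoded by Trp53, is a transcription factor that is kept scarce by the ubiquitin ligase MDM2 and accumulates when DNA is damaged or ribosome assembly, splicing or replication is disturbed. It binds a pair of half-sites near its target genes and raises their transcription. The products of its targets halt the cell cycle, damp growth signalling, or start cell death, and one of them, MDM2, brings p53 down again. Several of the same genes also respond to other inputs: Btg2 is an immediate early gene of growth factor and depolarization signalling, and Sesn2 and Bbc3 respond to the integrated stress response.

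Control libraries held 15170439 to 15594871 gene reads each and Bcas2 cKO libraries 16351800 to 16904326, recovered from the deposited FPKM (fragments per kilobase of gene length, scaled by 1 depth value per library). Bcas2 itself (ENSMUSG00000005687) was 10.3, 15.0 and 11.2 FPKM in control libraries 1, 3 and 4 and 8.76, 8.40 and 9.14 FPKM in Bcas2 cKO libraries 3, 4 and 5, a log2 fold change of -0.42 that did not pass the test (limma adjusted p 0.0829). The 8 beta cell markers checked, Ins1 and Ins2 among them, took 20.2 to 28.4% of the reads of control libraries and 14.4 to 15.7% of those of Bcas2 cKO libraries. Of these 8 markers 2 fell and none rose by that test, beside 7.55% and 6.97% of all genes tested. The 6 markers of alpha, delta and PP cells took 3.36 to 3.47% and 4.23 to 4.64%. The 13 acinar markers, from the exocrine pancreas, took 0.478 to 1.21% and 1.57 to 4.55%. The preparations therefore held transcripts of other cells, and in such bulk RNA fewer cells of a type and less RNA per cell cannot be told apart.

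The following sequences lie just upstream of a transcription start of the 2 members with the largest differences, Cdkn1a, whose window held p53 half-sites, and Btg2, whose window held none. A half-site is a 10-base run made of 3 purines, C, 2 of A or T, G and 3 pyrimidines, and a full site is a pair of them 0 to 13 bases apart. RefSeq promoter windows of 300 bases (250 before to 50 after a start, GRCm38.p6) were found for 9 of the 10 genes, 13 windows in all; Trp53inp1 had none. The Cdkn1a window ends at the base before the upstream of its 2 RefSeq starts (chr17:29090729-29090978, plus strand) and the Btg2 window at the base before its only start (chr1:134079156-134079405, minus strand). Each is written 5′ to 3′ on the strand of the gene, with p53 half-sites and the cyclic AMP response element TGACGTCA in capitals.
Cdkn1a: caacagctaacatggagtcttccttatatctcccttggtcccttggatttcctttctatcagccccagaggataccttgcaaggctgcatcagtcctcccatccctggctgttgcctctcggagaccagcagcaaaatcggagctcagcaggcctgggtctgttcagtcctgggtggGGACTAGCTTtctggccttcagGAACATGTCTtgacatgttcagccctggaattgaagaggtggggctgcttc
Btg2: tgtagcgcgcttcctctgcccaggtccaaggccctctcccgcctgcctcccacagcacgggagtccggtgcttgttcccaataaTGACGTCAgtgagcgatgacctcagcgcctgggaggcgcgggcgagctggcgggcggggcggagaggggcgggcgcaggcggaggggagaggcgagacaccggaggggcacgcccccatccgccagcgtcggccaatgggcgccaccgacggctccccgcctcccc

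The Cdkn1a window was the only one of the 13 with a full site, and 24 of the 32851 windows of all genes (0.073%) held one. Its half-sites were GGACTAGCTT at bases -73 to -64 and GAACATGTCT at -51 to -42, counted from the start. A second CATG core lies a few bases beyond the end of the latter, so that the 20 bases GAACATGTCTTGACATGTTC hold a pair of CATG cores with 6 bases between them, a spacing found in 0.712% of all windows. The second Cdkn1a start lies 2790 bases downstream, and its window held no half-site. Single half-sites were found upstream of Ccng1 (GGGCAAGCCT, -185 to -176), Mdm2 (GAACTTGCCT, -186 to -177), the downstream start of Sesn1 (AAGCTTGTTT, -173 to -164) and Bax (AGGCAAGCTT, -201 to -192). A single half-site was in 8.36% of all windows. The Btg2 window held the only TGACGTCA of the 13 (bases -166 to -159), a sequence in 1.79% of all windows. The AP-1 sequence TGANTCA was in none of the 13 windows and in 7.81% of all windows. Both strands were searched, no 2 of these motifs overlapped within a member's window other than the half-sites and CATG cores of Cdkn1a, and a match describes letters only. A site outside these windows, or with a base off the definition, would not have been found.

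In Bcas2 cKO, Cdkn1a, Btg2, Ccng1, Trp53inp1 and Phlda3 rose, 5 of 10, and none fell; Bax, Bbc3, Sesn1, Sesn2 and Mdm2 did not pass the test (limma with a variance trend, adjusted by Benjamini-Hochberg over all genes tested, threshold 0.05). The number that rose was 3 when control library 4 or Bcas2 cKO library 3 was left out, and 2 when either of the other Bcas2 cKO libraries was. Of all genes tested 6.97% rose and 7.55% fell by the same rule. For the falls, limma voom on the recovered reads also gave 0 of 10 (9.78% of all genes tested), and 1 gene, Sesn1, was lower at an unadjusted p under 0.05 (17.0% of all genes tested). In 7 of the 10 genes every Bcas2 cKO value lay above every control value, against 16.8% of all genes tested, and in Sesn1 every Bcas2 cKO value lay below, against 21.1%. The median log2 fold change of the 10 was 0.45, beside -0.03 over all genes tested. A 2-sided exact permutation test of 3 against 3 values cannot go below p = 0.1, the value reached by each of those 8 genes.

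**Figure D1:**
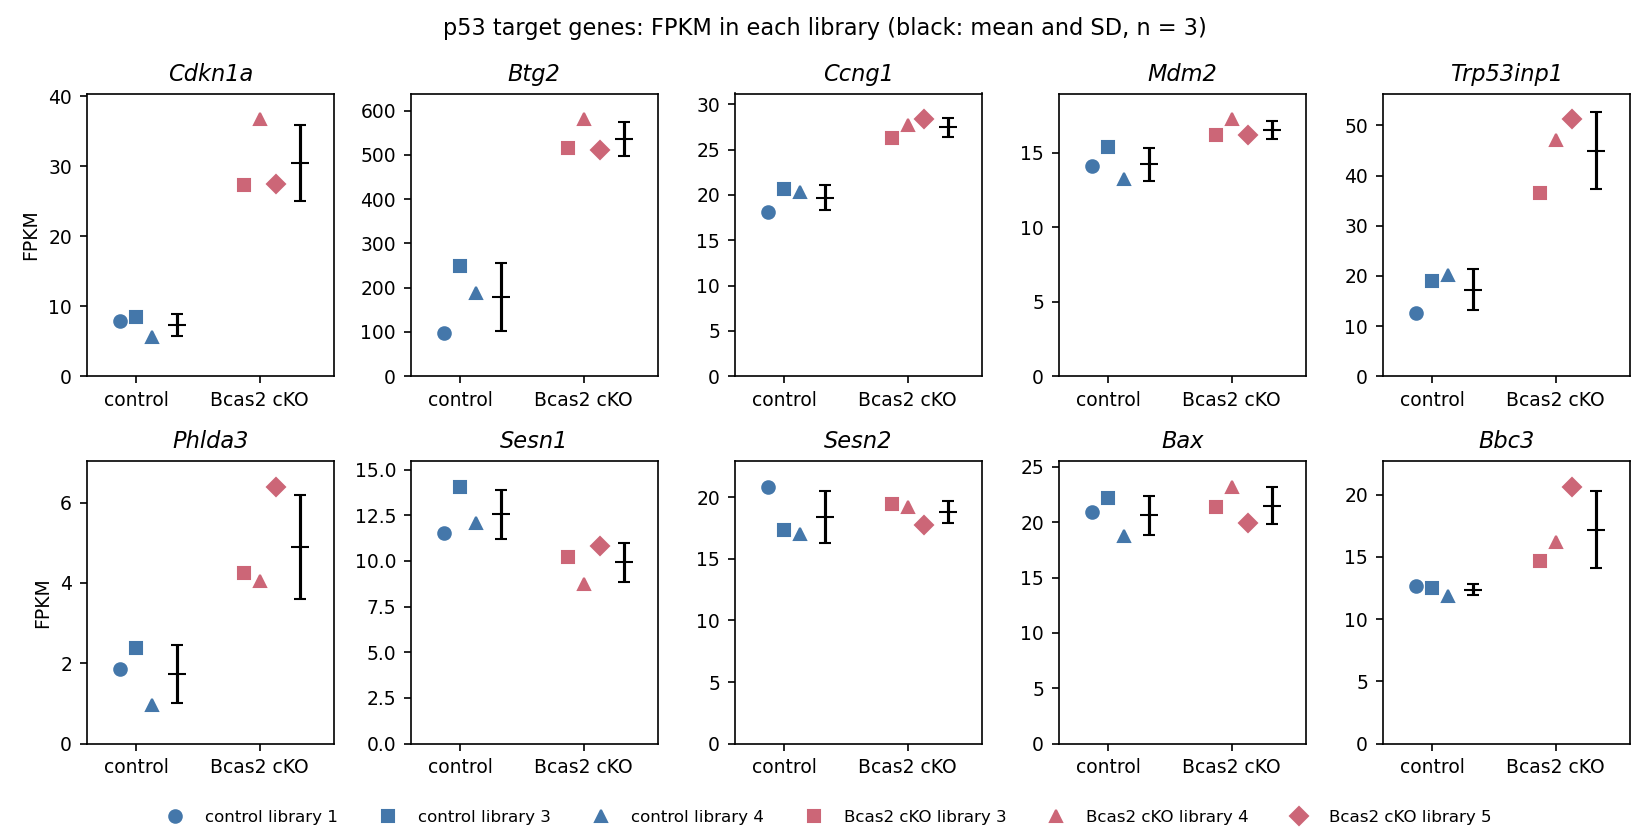
FPKM of each of the 10 p53 target genes (vertical axes, from 0) in the 3 control and 3 Bcas2 cKO libraries, 1 symbol per library, with the mean and SD in black. The groups are apart in every panel except Sesn2 and Bax, and Sesn1 is the only gene whose Bcas2 cKO values lie below control.

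Cdkn1a encodes p21, the inhibitor of cyclin-dependent kinases through which p53 halts the cell cycle. Cdkn1a (ENSMUSG00000023067, chromosome 17, 29090976 to 29100727, plus strand) was 7.91, 8.42 and 5.58 FPKM in control libraries 1, 3 and 4 and 27.3, 36.7 and 27.4 FPKM in Bcas2 cKO libraries 3, 4 and 5. The lowest Bcas2 cKO library was thus over 3 times the highest control library. The means were 7.30 ± 1.52 and 30.5 ± 5.41 FPKM (SD, n = 3 each), a ratio of 4.17, and the log2 fold change was 1.93 (SE 0.17, limma adjusted p 0.00213). It ranked 77 of 13723 genes by fold change and 69 by p-value. Cdkn1a kept its call without each library in turn, with log2 fold changes of 1.77 to 2.03.

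A transcript of unknown coding status, AC167363.2, lies on the opposite strand across the downstream start of Cdkn1a (chromosome 17, 29093416 to 29094461). It held 10, 18 and 12 reads in control libraries 1, 3 and 4 and 86, 113 and 79 reads in Bcas2 cKO libraries 3, 4 and 5, high in the same libraries as Cdkn1a. Without knowledge of the strand setting, reads of the overlapped part cannot be told apart between the 2 genes. The long noncoding RNA of the Cdkn1a locus, Trp53cor1 (lincRNA-p21), was below the filter, at 0.575 ± 0.189 FPKM among control libraries and 0.859 ± 0.0986 FPKM among Bcas2 cKO libraries (SD, n = 3 each), with no overlap between the groups.

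Btg2 encodes an antiproliferative protein that recruits the CCR4-NOT deadenylase to messenger RNAs. Btg2 (ENSMUSG00000020423, chromosome 1, 134075170 to 134079120, minus strand) was by far the most abundant member, at 97.0, 249.8 and 188 FPKM in the control libraries and 516, 581 and 512 FPKM in the Bcas2 cKO libraries, in the same library order. Its control libraries spread widely (coefficient of variation 43.1%), with control library 1 lowest, while its Bcas2 cKO libraries were close to each other (7.21%). The log2 fold change was 1.69 (SE 0.32, limma adjusted p 0.0187). The call was lost without control library 4 (limma adjusted p 0.0544) and when Bcas2 cKO library 3, 4 or 5 was left out (0.0550, 0.0651 and 0.0556), with log2 fold changes of 1.63 to 1.77. It was also lost with no filter on low genes (0.0618), and over all settings the adjusted p was 0.00402 to 0.0651.

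Ccng1 encodes cyclin G1, which works with a phosphatase to activate MDM2. Ccng1 (ENSMUSG00000020326, chromosome 11, 40748552 to 40755311, minus strand) was 18.1, 20.7 and 20.3 FPKM in the control libraries and 26.3, 27.7 and 28.4 FPKM in the Bcas2 cKO libraries. The difference was small but the libraries of each group lay close together, with coefficients of variation of 7.12% and 3.84%. The log2 fold change was 0.46 (SE 0.08, limma adjusted p 0.0146), and the call was lost without Bcas2 cKO library 4 (limma adjusted p 0.0518) or 5 (0.0552), with 0.00612 to 0.180 over all settings.

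Trp53inp1 and Phlda3 link p53 to autophagy and to growth signalling. Trp53inp1, whose product acts in autophagy and in the activation of p53 itself, was 12.6, 19.0 and 20.2 FPKM in the control libraries and 36.5, 47.2 and 51.2 FPKM in the Bcas2 cKO libraries (ENSMUSG00000028211, chromosome 4, 11156431 to 11174379, plus strand). The groups were far apart, with a log2 fold change of 1.35 (SE 0.20, limma adjusted p 0.00855). Trp53inp1 kept its call without each library in turn. Phlda3, whose small lipid-binding product restrains AKT, was the least abundant member, at 1.86, 2.38 and 0.961 FPKM in the control libraries and 4.24, 4.05 and 6.40 FPKM in the Bcas2 cKO libraries (ENSMUSG00000041801, chromosome 1, 135766119 to 135769136, plus strand). These values rested on 46, 50 and 22 reads in control and 120, 111 and 172 reads in Bcas2 cKO. The groups did not overlap, and the log2 fold change was 1.12 (SE 0.23, limma adjusted p 0.0241). The Phlda3 call was lost without control library 4 (limma adjusted p 0.0538), without Bcas2 cKO library 3, 4 or 5 (0.0572, 0.0547 and 0.0708) and with no filter on low genes (0.0744), with 0.0127 to 0.0744 over all settings.

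Mdm2, the gene of the ligase that degrades p53, was 14.1, 15.4 and 13.2 FPKM in the control libraries and 16.2, 17.2 and 16.2 FPKM in the Bcas2 cKO libraries (ENSMUSG00000020184, chromosome 10, 117688875 to 117710758, minus strand). The Bcas2 cKO libraries lay just above the control libraries, with no overlap. The ratio of the means was 1.16 and the log2 fold change 0.20 (SE 0.08, 95% interval 0.01 to 0.40), which did not pass the test (limma adjusted p 0.135). The upper bound of the Mdm2 interval lies below the lower bounds for Cdkn1a (1.52), Btg2 (0.93), Trp53inp1 (0.87) and Phlda3 (0.57); the differences between members were not tested.

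The sestrins damp the growth kinase mTORC1, Sesn2 as a sensor of leucine. Sesn1 was the one member below control, at 11.5, 14.1 and 12.1 FPKM in the control libraries and 10.2, 8.72 and 10.8 FPKM in the Bcas2 cKO libraries (ENSMUSG00000038332, chromosome 10, 41809935 to 41908424, plus strand). Its groups did not overlap, and the log2 fold change of -0.31 (SE 0.11, 95% interval -0.57 to -0.06) did not pass the test (limma adjusted p 0.101). Sesn2 was 20.9, 17.4 and 17.0 FPKM in the control libraries and 19.4, 19.2 and 17.8 FPKM in the Bcas2 cKO libraries (ENSMUSG00000028893, chromosome 4, 132492032 to 132510501, minus strand). Its groups overlapped, with a log2 fold change of 0.03 (95% interval -0.20 to 0.26, limma adjusted p 0.844).

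Of the cell death members, Bax encodes the pore-forming protein of the mitochondrial outer membrane and Bbc3 encodes PUMA, which sets it free. Bax was 20.9, 22.2 and 18.7 FPKM in the control libraries and 21.4, 23.2 and 19.9 FPKM in the Bcas2 cKO libraries (ENSMUSG00000003873, chromosome 7, 45461697 to 45466898, minus strand). The groups overlapped, and the log2 fold change was 0.06 (95% interval -0.17 to 0.28, limma adjusted p 0.716). Bbc3 was 12.7, 12.5 and 11.9 FPKM in the control libraries and 14.7, 16.2 and 20.6 FPKM in the Bcas2 cKO libraries (ENSMUSG00000002083, chromosome 7, 16308393 to 16318205, plus strand). Every Bcas2 cKO library was above control, and Bcas2 cKO library 5 stood highest. The log2 fold change of Bbc3 was 0.43 (SE 0.12, 95% interval 0.14 to 0.72), which did not pass the test (limma adjusted p 0.0605). It passed over genes of at least 5 FPKM (0.0440), rescaled without the hormone genes (0.0456) and with voom (0.0444), with 0.0440 to 0.241 over all settings.

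**Figure D2:**
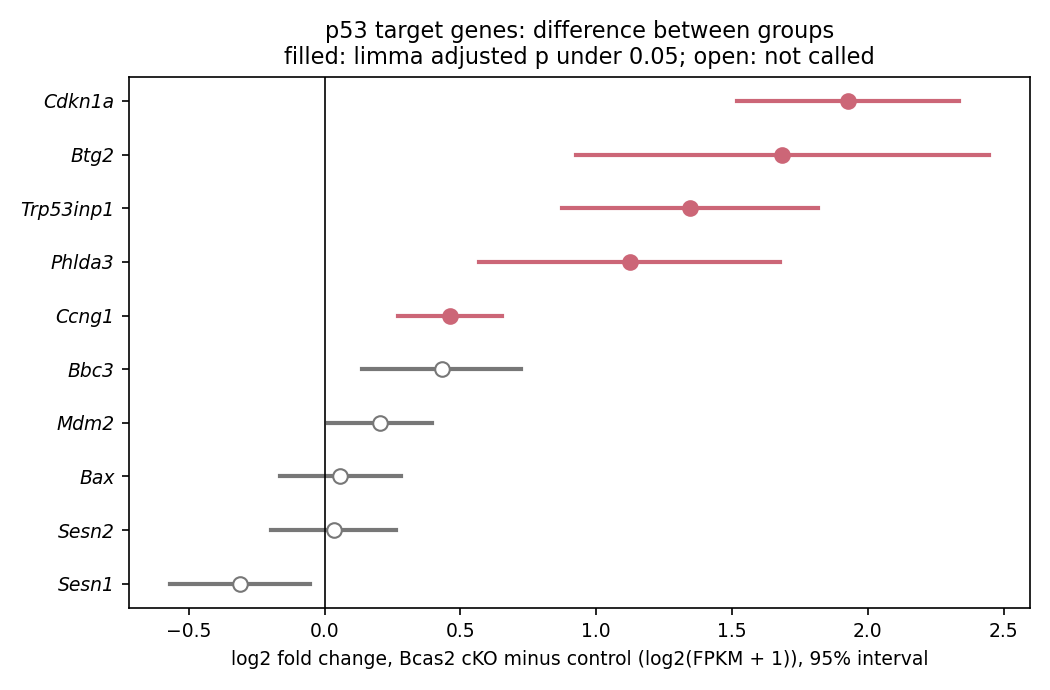
Log2 fold change of each gene (Bcas2 cKO minus control, on log2(FPKM + 1)) with limma's 95% interval as a line; filled points passed the adjusted p threshold of 0.05. Cdkn1a, Btg2, Trp53inp1, Phlda3 and Ccng1 are filled, and the intervals of Sesn2 and Bax include 0.

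In control, Btg2 (178 FPKM) stood apart from the other 9 members, whose means were 1.73 to 20.6 FPKM. Bax, Ccng1, Sesn2, Trp53inp1, Mdm2, Sesn1 and Bbc3 followed in that order of FPKM, with each neighbouring pair overlapping over the 3 control libraries. Cdkn1a (7.30 FPKM) and Phlda3 (1.73 FPKM) came last, each apart from its neighbour. Control library 3 held the highest control value of 7 of the 10 genes and control library 4 the lowest of 6. Among the Bcas2 cKO libraries, library 5 was highest for 5 genes and library 4 for 4.

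Immediate early genes, which depolarization or the handling of tissue switches on quickly, were also higher in Bcas2 cKO. Of 14 checked (Fos, Fosb, Jun, Junb, Egr1, Egr2, Nr4a1, Ier2, Ier3, Atf3, Dusp1, Klf4, Npas4 and Arc), 13 rose and none fell, none was at 0 in a library, and their FPKM summed to 735, 2002 and 1863 in control libraries 1, 3 and 4 and to 4705, 6032 and 5715 in Bcas2 cKO libraries 3, 4 and 5. Control library 1 was lowest and Bcas2 cKO library 4 highest in this sum, as they were for Btg2. Among the p53 targets, control library 1 was the lowest of its group for 4, Btg2 included. Bcas2 cKO library 4 was the highest of its group for 4, again with Btg2, so neither feature alone was particular to Btg2. The 13 acinar markers summed to 3707 to 9128 FPKM in the control libraries and 11080 to 34570 in Bcas2 cKO, with 3 of the 12 tested having risen, none having fallen, and none at 0. Of 7 genes of the integrated stress response (Atf4, Ddit3, Chac1, Trib3, Asns, Psat1 and Ppp1r15a) 1 rose and none fell, with sums of 177 to 293 FPKM in the control libraries and 294 to 408 in Bcas2 cKO. Of the 8 markers of macrophages and lymphocytes 5 were tested, 3 had risen, none had fallen, and the sums of 79.9 to 96.8 and 96.2 to 120 FPKM overlapped, with Cd3e at 0 in at least 1 library. Of all genes tested 6.97% rose and 7.55% fell by the same rule, so counts of 0 or 1 in such short lists are near the background. The part of these lists in the differences of the p53 targets was not tested.

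**Figure D3:**
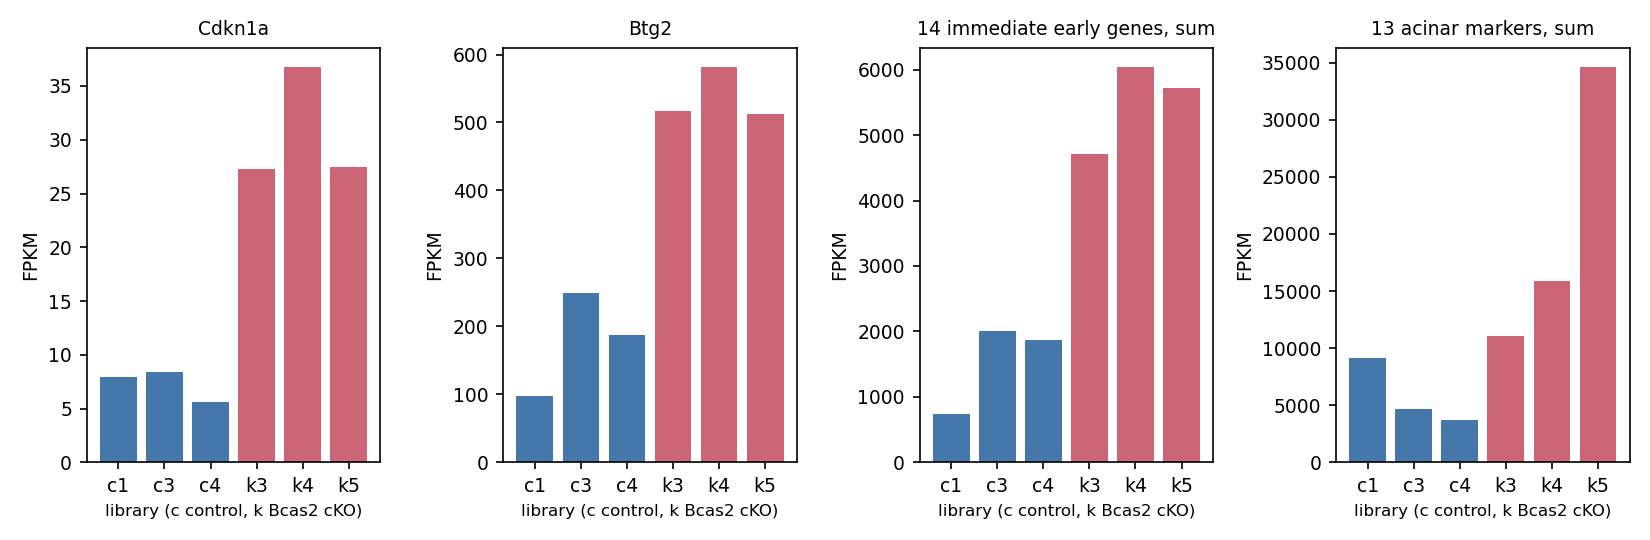
FPKM of Cdkn1a and Btg2 and summed FPKM of 14 immediate early genes and 13 acinar markers (linear axes from 0) in control libraries 1, 3 and 4 (c1, c3, c4) and Bcas2 cKO libraries 3, 4 and 5 (k3, k4, k5). All 4 quantities are higher in every Bcas2 cKO library than in any control library. Btg2 and the immediate early sum are both lowest in control library 1, which was the lowest control library for 4 of the p53 targets.

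Trp53 rose, while among its tested regulators only Crebbp rose and only Atm fell, which is near the share of all genes tested. Trp53 (ENSMUSG00000059552, chromosome 11, 69580359 to 69591873) was 7.95, 6.39 and 6.41 FPKM in the control libraries and 10.8, 11.8 and 9.79 FPKM in the Bcas2 cKO libraries. The groups did not overlap, and Trp53 rose with a log2 fold change of 0.58 (SE 0.11, limma adjusted p 0.0177). Its call was lost without control library 3 or 4 (adjusted p 0.0513 and 0.0643) and without Bcas2 cKO library 3 or 4 (0.0600 for each). Of the 16 tested genes of p53 and its regulators (22 listed), 2 rose and 1 fell, 3 of 16 beside 14.5% of all genes tested called in either direction, and their median log2 fold change was 0.02. The groups did not overlap in 5 of the 16 with Bcas2 cKO above and 3 with Bcas2 cKO below, beside 16.8% and 21.1% of all genes tested. Crebbp, an acetyltransferase cofactor of p53, rose by 0.36 on the log2 scale, and Atm, the kinase of the DNA damage response, fell from 7.97 ± 1.87 to 4.805 ± 0.184 FPKM (SD, n = 3 each). Of the 6 fits without 1 library, Crebbp was called only without control library 1 (adjusted p 0.0350, against 0.0764 to 0.115 in the other fits) and Atm only without control library 3 (0.0130, against 0.0836 to 0.115). The p53 relatives Trp63 and Trp73 were near 0, at means of at most 0.0346 FPKM in either group.

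Among 43 other p53 targets, 32 were tested, of which 4 rose and none fell, beside 6.97% and 7.55% of all genes tested. Their median log2 fold change was 0.11. The groups did not overlap in 11 of the 32 with Bcas2 cKO above and 4 with Bcas2 cKO below, beside 16.8% and 21.1% of all genes tested. At an unadjusted p under 0.05, 8 of the 32 were higher and 5 lower, beside 14.5% and 17.0% of all genes tested. With limma voom 6 rose and 1 fell, beside 8.48% and 9.78%. Gadd45a, a stress sensor that acts in growth arrest, rose from 4.33 ± 1.32 to 10.7 ± 0.401 FPKM (SD, n = 3 each; log2 fold change 1.16, limma adjusted p 0.00842). The polo-like kinase genes Plk3 and Plk2 rose by 1.04 and 0.62 on the log2 scale, and Pcna, the sliding clamp of DNA replication and repair, by 0.83. Leaving out any 1 library left Gadd45a and Pcna called. Plk3 was not called without control library 4 or Bcas2 cKO library 5 (adjusted p 0.0643 and 0.0532), and Plk2 was not called without control library 4 or Bcas2 cKO library 3 or 5 (0.0665, 0.0739 and 0.0708).

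By role, 3 of the 4 tested genes of growth arrest rose (Gadd45a, Plk2 and Plk3), 1 of 7 genes of DNA repair (Pcna), none of 10 genes of cell death and none of 9 genes of metabolism. With 6.97% of all genes tested rising, counts of 0 or 1 among so few genes are near the background, and the roles were not tested against each other. Of the cell death genes, Pmaip1, which encodes NOXA, was 0.736 ± 0.278 and 1.71 ± 0.387 FPKM (log2 fold change 0.64, limma adjusted p 0.0575), and Fas, the death receptor gene, was 1.64 ± 0.262 and 1.18 ± 0.443 FPKM (-0.29, limma adjusted p 0.324). The 11 targets below the filter had means of at most 0.965 FPKM over the 6 libraries. One of them, the death receptor gene Eda2r, chosen after its values were seen, was 0.236, 0.101 and 0.104 FPKM in the control libraries and 0.711, 0.733 and 0.876 FPKM in the Bcas2 cKO libraries, on 8 to 22 and 76 to 89 reads.

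Genes of the cell cycle that p53 is known to lower through p21 and the DREAM repressor complex did not pass the test in either direction. Of 34 listed, 13 reached the filter and none rose or fell by limma with trend (6.97% and 7.55% of all genes tested). At an unadjusted p under 0.05, 4 were higher and none lower (14.5% and 17.0%), and limma voom gave 2 rises and no fall (8.48% and 9.78%). The 2 with the highest mean FPKM over all 6 libraries were E2f1, an activator of S phase genes, at 4.54 ± 0.923 and 6.44 ± 1.005 FPKM, and Mcm4, a subunit of the replicative helicase, at 3.38 ± 0.394 and 4.40 ± 0.330 FPKM. The 21 genes below the filter had means of at most 0.929 FPKM. The main fit tested 3 of the 19 listed genes of mitosis and 10 of the 15 of S phase. With no filter on low genes, all 34 were tested and 0 rose and 0 fell, beside 628 and 516 of the 32845 genes then tested. On the log2(FPKM + 1) scale genes this low can hardly fall, so that count cannot decide whether they did.

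**Figure D4:**
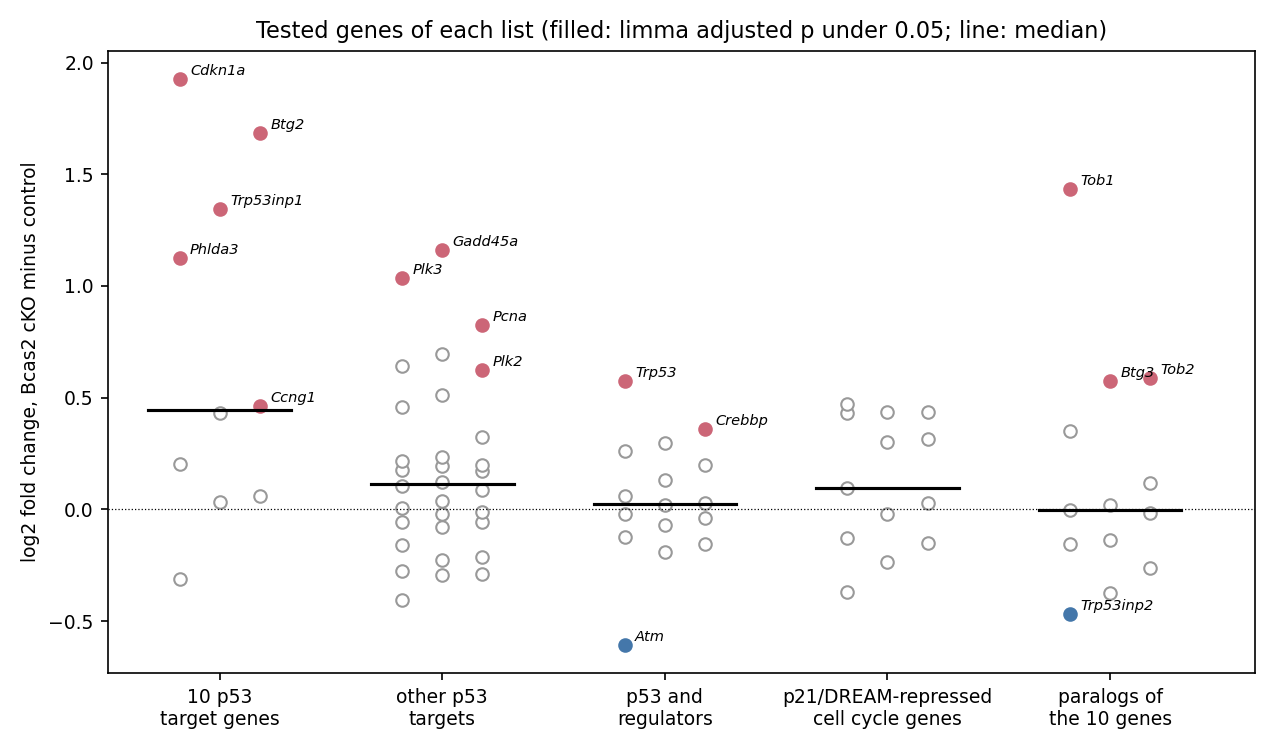
Log2 fold change (Bcas2 cKO minus control) of each tested gene of the 10 p53 targets, the other p53 targets, p53 and its regulators, the cell cycle genes lowered through p21 and DREAM, and paralogs of the 10 genes; filled and named points passed the adjusted p threshold of 0.05 and the line is the median. The medians are 0.45, 0.11, 0.02, 0.10 and -0.001.

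The closest relatives of the members did not all move with them. Of 13 tested paralogs (14 listed, Mdm4 being also among the regulators), 3 rose and 1 fell, with a median log2 fold change of -0.001. Of all genes tested 6.97% rose and 7.55% fell, so the 1 fall is near the background. All 3 that rose belong to the antiproliferative family of Btg2: Tob1, from 54.1 ± 14.2 to 144.6 ± 12.0 FPKM (log2 fold change 1.43, limma adjusted p 0.00652), Tob2 (0.59) and Btg3 (0.57), while Btg1 was 0.12 and not called. The p21 relatives Cdkn1b, which encodes p27, and Cdkn1c, which encodes p57, had log2 fold changes of -0.26 and 0.02 and were not called. Trp53inp2, the relative of Trp53inp1, fell from 79.1 ± 3.59 to 56.9 ± 3.34 FPKM (-0.47, limma adjusted p 0.0157). Mdm4, the partner of MDM2 (-0.16), Phlda1 (0.35), Ccng2 (-0.38), the BAX relatives Bak1 (-0.02) and Bok (-0.001), and Sesn3 (-0.13) were not called, and Phlda2 was below the filter. Tob1 was called whichever library was left out, and Trp53inp2 in every such fit except that without Bcas2 cKO library 3 (adjusted p 0.0678). Tob2 was called only without control library 1 or 3 (0.0338 and 0.0245, against 0.0577 to 0.0805 in the others) and Btg3 only without Bcas2 cKO library 5 (0.0413, against 0.0704 to 0.124).

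The 5 protein-coding genes nearest to Cdkn1a in their difference from control over the 6 libraries were Rasd1, Ttyh1, Dusp5, Atp13a1 and Slc41a3, at distances of 0.34 to 0.64 on the log2(FPKM + 1) scale. Rasd1, a small GTPase gene, was 43.1, 47.6 and 27.8 FPKM in the control libraries and 153, 159 and 150.1 FPKM in the Bcas2 cKO libraries. Dusp5, a phosphatase gene of the ERK pathway, was 16.8, 23.8 and 15.2 FPKM in the control libraries and 63.8, 75.9 and 73.1 FPKM in the Bcas2 cKO libraries. Rasd1, Ttyh1 and Dusp5 shared with Cdkn1a its lowest value in control library 4, its highest control value in library 3 and its highest Bcas2 cKO value in library 4. The genes were chosen by closeness over these same 6 libraries, so a shared order follows in part from the choice.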

How the data were processed

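Per the labels' protocols, Trizol RNA was made into libraries with a SMARTer mRNA-seq kit, and per the submitters' processing notes the build was GRCm38 (mm10). The aligner, counter, strand setting and depth scaling were not given in the sources used here. The deposited values are FPKM, per the file headers. The labels number the Bcas2 cKO samples 1, 3 and 4 and the columns are 3, 4 and 5, so library 5 has no sample label of its own. In each library all values above 0 (100%) came to whole reads, within 0.01 of a read, when multiplied by gene length and divided by 1 constant. The depth behind that constant was not the sum of gene reads. It was 1.017, 0.890 and 0.967 times that sum in control libraries 1, 3 and 4. In Bcas2 cKO libraries 3, 4 and 5 it was 1.11, 1.042 and 1.020 times. Every Bcas2 cKO library was thus above every control library, so FPKM and reads can order libraries and groups differently. With equal reads outside the hormone genes, the Mdm2 log2 fold change was 0.199, beside 0.205 in the main fit.

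Genes of at least 1 FPKM on average (13723 of 54532) were tested on log2(FPKM + 1), which understates the change of low genes, with limma 3.58.1 (lmFit, eBayes with trend; R 4.3.3), two-sided. Benjamini-Hochberg adjustment covered all genes tested, and a gene rose or fell at an adjusted p under 0.05. The 95% intervals are limma's, not adjusted for the number of genes. The fit was tested on simulated data.

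The 10 genes, all lists and the settings were chosen with earlier results of these data known. Named are the 10 genes, Bcas2, Trp53, the paralogs, up to 6 called genes of each list and direction, the 2 highest in a list without calls, and the 5 protein-coding genes nearest Cdkn1a by Euclidean distance of log2(FPKM + 1) minus the control mean. Other genes named were chosen after their values were seen. Of the other p53 targets, 1 gene is not reported here and is left out of that list’s counts. Other settings were a pseudocount of 0.1, filters above 0 and at 5 FPKM, median-of-ratios scaling, equal reads outside Iapp, Ins1, Ins2, Gcg, Sst, Ppy and Pyy, eBayes without trend, voom on recovered reads, a replicate block, and each library left out. Python 3.11.15, pandas 2.3.3, numpy 2.4.6, scipy 1.17.1 and matplotlib 3.10.9 were used.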

Additional observations from a re-analysis of the deposited data

How the results depend on the processing

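Cdkn1a and Trp53inp1 passed the test under all 14 other settings, and Mdm2, Sesn1, Sesn2 and Bax under none. Btg2 passed in 8 of 14, Ccng1 in 11 of 14, Phlda3 in 7 of 13 (it was below the filter at 5 FPKM) and Bbc3 in 3 of 14. With no filter on low genes, which tested 32845 genes, 3 members rose, 3 other p53 targets rose, 1 gene of p53 and its regulators rose and 0 fell, and 1 paralog rose. Over all genes 628 then rose and 516 fell, beside 957 and 1036 of 13723 in the main fit. With voom, 1 other target fell, 2 cell cycle genes rose, and Bcas2 was called at -0.45, while 8.48% of all genes tested rose and 9.78% fell. Without trend, 1 cell cycle gene rose and 0 regulators fell, and with median-of-ratios scaling 0 regulators fell. Over all genes 913 rose and 920 fell without trend, and 1127 rose and 881 fell with median-of-ratios scaling. When a library was left out, members that rose numbered 2 to 5, other targets 2 to 5 (2 without control library 4), regulators that rose 0 to 2 and fell 0 to 1, cell cycle genes that rose 0 to 1, and paralogs that rose 1 to 2 and fell 0 to 1. The Bcas2 log2 fold change then ran from -0.52 to -0.27 and was called without control library 1 (-0.52, adjusted p 0.0492). Over all genes, 957 rises became 466 when control library 4 was left out and 487, 476 and 491 when Bcas2 cKO library 3, 4 or 5 was. Without control library 1 or 3 they were 956 and 686. The 1036 falls became 391 (without Bcas2 cKO library 3) to 994 (without control library 1). With a library left out, the log2 fold change of Sesn2 ran from -0.018 (control library 4; -0.004 for control library 3) to 0.123, and that of Bax from -0.006 (control library 4) to 0.11. The cause was not tested.

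The numbers 3 and 4 occur in both groups, but nothing says that they pair the samples, and the deviations from the group means correlated at -0.149 for number 3 and 0.045 for number 4. With a replicate block on these numbers, over 4 libraries, 2 members rose (Cdkn1a and Trp53inp1), 2 other targets rose, 1 regulator rose and 0 fell, and 1 paralog rose and 0 fell; over all genes 413 rose and 233 fell. Phlda3, the least abundant member, rested on as few as 22 reads.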
